A study of Mus musculus with 18 samples.

Results

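miR-31 is a microRNA that is cut as a pair of arms from one hairpin, and both arms, miR-31-5p and miR-31-3p, were followed through 18 small RNA libraries of C2C12 cells, a line of mouse myoblasts that fuse into myotubes when serum is withdrawn. These are 2 of the 2042 miRNA names in the deposited table, of which 1604 had a read in at least 1 library. miR-31 was selected on its read counts in the MRTF-A eluates of undifferentiated cells, where miR-31-5p led all names. Every comparison with those 3 libraries on one side is therefore given as a description, with no test. They enter the tests of other comparisons through the spread and the filter on low counts, both taken over all libraries of a fit. The deposited scaling was also computed over all 18 libraries.

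The libraries came from miTRAP, a method in which an RNA tagged with MS2 hairpins is held on a resin, incubated with cell extract, and eluted together with the miRNAs it retained. The bait was the 3'UTR of MRTF-A (gene Mrtfa), a coactivator of serum response factor in muscle and other contractile cells. The MS2 control carried the tag without the bait, and input RNA was extracted from the same kind of cell extract without any pull-down.

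There were 6 groups of 3 libraries each. The differentiated cells had spent 7 days in medium with 2% horse serum, after growth in 10% fetal calf serum, and gave an MRTF-A eluate, an MS2 eluate and an input. The undifferentiated cells gave the same 3 kinds of library. No gene was altered, and the labels name the tissue as myoblasts in both states and repeat the horse serum text for the undifferentiated samples. The differentiation label was therefore used for the state. C2C12 is a single line. Nothing in the labels ties the 3 libraries of a group to separate cultures, and p-values then reflect the spread among these libraries alone. The letters A, B and C tell the libraries of a group apart, and the same letter in different groups does not mark a pair.

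Mature miRNAs are loaded into an Argonaute protein and pair with target mRNAs mainly through the seed, the bases that follow the 5′ end. Usually one arm of a hairpin, the guide, is retained and the other, the passenger arm, is degraded. In mouse muscle stem cells miR-31 is known for holding back translation of Myf5, a transcription factor that commits the cell to myogenesis.

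The mature sequences are shown because the arms differ in seed and so in the sites they could pair with. They are from RefSeq (GRCm38.p6, gene Mir31), written 5′ to 3′ with the seed, bases 2 to 8, in capitals.

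mmu-miR-31-5p: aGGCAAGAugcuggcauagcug
mmu-miR-31-3p: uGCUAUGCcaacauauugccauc

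The 22 bases of miR-31-5p lie at chr4:88910614-88910635 and the 23 bases of miR-31-3p at chr4:88910577-88910599, both on the minus strand. The hairpin, chr4:88910557-88910662, lies within an exon of AL805899.1, a long intergenic non-coding RNA gene on the same strand (GENCODE vM21). Among the 1679 mature mouse miRNAs of the sequence table, 0 others shared the seed of miR-31-5p and 0 that of miR-31-3p.

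The 3'UTR of the bait gene was searched for these seeds. The longest annotated 3'UTR of Mrtfa has 1004 bases (chr15:81012281-81013284, minus strand), and the sources used here do not say whether the bait held exactly these bases. The transcript strand was searched for the complement of bases 2 to 8 (TCTTGCC for miR-31-5p, GCATAGC for miR-31-3p), for that of bases 2 to 7 followed by A (CTTGCCA and CATAGCA), and for the 6-base complements CTTGCC and CATAGC. For miR-31-5p 1 match was found, CTTGCCA, in the last 7 bases of the annotated 3'UTR. It contains the 6-base match CTTGCC. The end of the 3'UTR is shown because it holds this match, in capitals (chr15:81012281-81012309, minus strand, written 5′ to 3′ on the transcript).

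Mrtfa 3'UTR end: taaaataaaacaaaaacactgaCTTGCCA

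Mouse 3'UTRs at least as long numbered 10212, taking the longest of each gene and with Mrtfa included. Of these, 8.22% held CTTGCCA, 26.8% CTTGCC and 8.69% TCTTGCC in their first 1004 bases. None of the miR-31-3p motifs occurred in these 1004 bases of Mrtfa. GCATAGC was present in 3.95%, CATAGCA in 6.44% and CATAGC in 17.9% of the same 10212 windows. A match is a description of letters and not of a bound site.

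The deposited values were CPM, reads relative to library size after a scaling factor for each library, and all of them were whole reads within 0.01 read once that scaling was undone. Depth was 107165 to 544504 reads in MRTF-A eluates, 15562 to 39695 in MS2 eluates and 294112 to 860828 in inputs. One read was worth between 1.66 and 34.3 CPM depending on the library. The scaling factors were 0.341 to 0.634 in MRTF-A eluates, 1.24 to 2.37 in MS2 eluates and 0.701 to 1.48 in inputs. A name that dominates a library with a low factor can therefore have more CPM than its share of reads would give. MS2 eluates fell into 3 libraries with few reads on human miRNA names (0.0900 to 0.115%) and 3 with many (0.755 to 0.930%, differentiated A and B and undifferentiated A). The summed level of 6 skeletal muscle markers was 48696 to 77883 CPM in differentiated input, with all 6 detected, against 431 to 3441 CPM in undifferentiated input, where miR-1a-3p, miR-499-5p and miR-208b-3p were at 0 reads.

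miR-31-5p was among the more abundant miRNAs of the cells and among the leading ones of the MRTF-A eluates in both states. In differentiated MRTF-A eluates it was at 181537, 186715 and 126062 CPM in libraries A, B and C (41640, 56044 and 24511 reads). In differentiated MS2 eluates it was at 1561, 2266 and 1923 CPM (47, 66 and 71 reads). In differentiated inputs it was at 1364, 1199 and 1168 CPM (743, 638 and 543 reads). Each MRTF-A library thus stood far above each library of the other 2 kinds.

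In undifferentiated MRTF-A eluates, the libraries that the choice of miR-31 rests on, miR-31-5p was at 867195, 1948995 and 1093394 CPM (56563, 234608 and 86754 reads). In undifferentiated MS2 eluates it was at 4595, 2279 and 2113 CPM (140, 192 and 99 reads). In undifferentiated inputs it was at 4900, 5862 and 8273 CPM (1609, 2110 and 4994 reads). MRTF-A library B was the highest of its group, MS2 library A the highest of its group, and the undifferentiated inputs did not overlap the differentiated ones.

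As a share of a library's reads miR-31-5p took 9.45 ± 1.27% of differentiated MRTF-A eluates, 0.315 ± 0.127% of differentiated MS2 eluates and 0.165 ± 0.0246% of differentiated inputs (SD, n = 3 each). In the undifferentiated state it took 60.3 ± 6.95% of MRTF-A eluates, 0.524 ± 0.142% of MS2 eluates and 0.576 ± 0.0267% of inputs (SD, n = 3 each). Ordered by mean share, miR-31-5p was in place 2 in differentiated MRTF-A eluates, behind the muscle miRNA miR-1a-3p and ahead of let-7f-5p. Its shares of 8.00 to 10.3% overlapped those of let-7f-5p, 7.48 to 9.76%, so that these neighbours did not differ beyond their spread, while miR-1a-3p took 30.8 to 34.1%. In undifferentiated MRTF-A eluates it was in place 1, with 52.8 to 66.5% against 6.16 to 9.02% for miR-34c-5p in place 2.

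In the control and in the cells its place was lower. It was in place 23 of the 458 names with a read in differentiated MS2 eluates and in place 14 of 544 in undifferentiated MS2 eluates. It was in place 52 of 1127 in differentiated inputs and in place 22 of 1137 in undifferentiated inputs. The shares of both neighbours overlapped those of miR-31-5p in differentiated input (miR-6237 at 0.169 ± 0.0311% and miR-21a-3p at 0.158 ± 0.0704%; SD, n = 3 each) and in undifferentiated input (miR-199a-3p at 0.622 ± 0.0342% and let-7c-5p at 0.560 ± 0.266%; SD, n = 3 each).

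**Figure D1:**
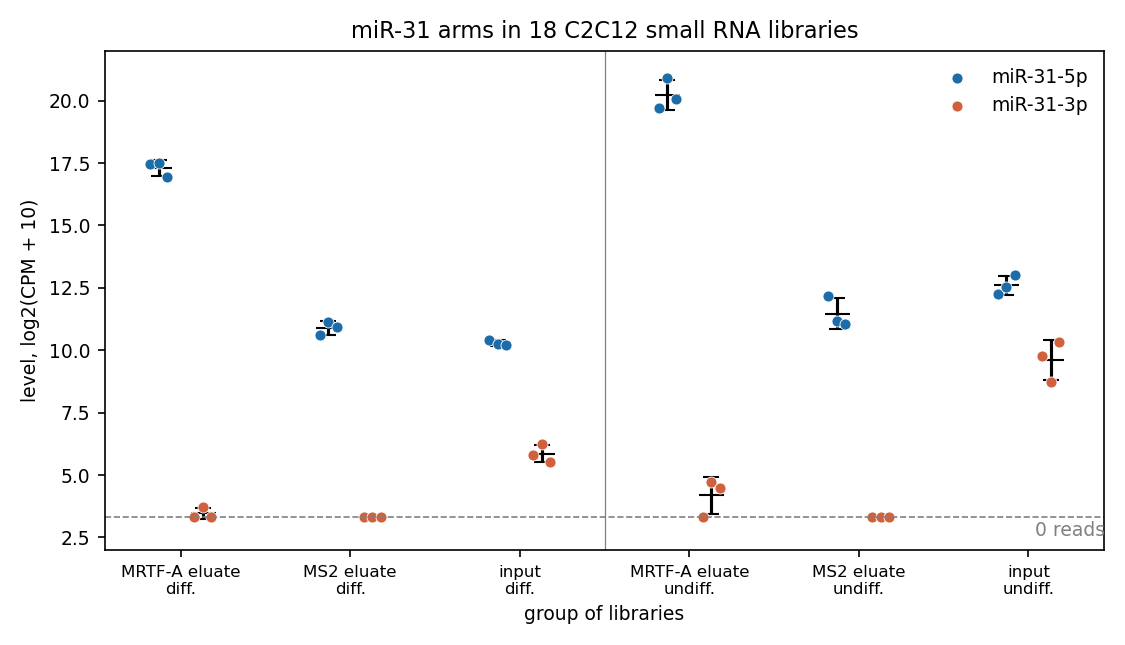
Levels of miR-31-5p (blue) and miR-31-3p (red) as log2(CPM + 10) in each library of the 6 groups (diff., differentiated; undiff., undifferentiated); points are libraries, and the black bars are the mean ± SD of 3 libraries. The dashed line is a count of 0 reads. miR-31-5p is far higher in the MRTF-A eluates than in MS2 eluates or inputs of the same state, whereas miR-31-3p is at or near 0 reads in all eluates and above it in all inputs.

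miR-31-3p, the passenger arm, was found in the cells and all but missing from the eluates. In differentiated inputs it had 25, 35 and 17 reads in libraries A, B and C (45.9, 65.8 and 36.6 CPM). In undifferentiated inputs it had 280, 149 and 761 reads (853, 414 and 1261 CPM). It was in place 203 by mean share in differentiated inputs and in place 78 in undifferentiated inputs, and the undifferentiated libraries were all above the differentiated ones.

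In differentiated MRTF-A eluates miR-31-3p had 0, 1 and 0 reads, and in undifferentiated MRTF-A eluates 0, 2 and 1 reads. The single differentiated read was worth 3.33 CPM and the undifferentiated libraries with reads were at 16.6 and 12.6 CPM. All 6 MS2 eluates were at 0 reads. A count of 0 allows up to 3 reads, which is 81.2 to 103 CPM in differentiated MS2 libraries and 35.6 to 98.5 CPM in undifferentiated MS2 libraries, so no single differentiated MS2 library could have shown miR-31-3p at its level in differentiated input. Such limits and the intervals below cover counting error only.

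The first tested comparison asked how each arm differed between cells after 7 days of differentiation and undifferentiated cells, from the inputs alone. Both arms fell. miR-31-5p averaged 1244 ± 106 CPM in differentiated input and 6345 ± 1738 CPM in undifferentiated input (SD, n = 3 each), so that the undifferentiated level was 5.10 times the differentiated one, or 3.48 times as a share of reads. On the log2(CPM + 10) scale the difference was -2.31 ± 0.31 (SE, limma, adjusted p = 5.13e-05), lower in 3 of 3 differentiated libraries.

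miR-31-3p averaged 49.4 ± 14.9 CPM in differentiated input and 842 ± 423 CPM in undifferentiated input (SD, n = 3 each), 17.1 times as high in the undifferentiated cells, or 11.8 times as a share of reads. Its log2 difference was -3.73 ± 0.42 (SE, limma, adjusted p = 1.29e-05), again with no overlap between the states. The passenger arm thus had the 4th lowest of 313 differences, next to miR-125a-3p (-3.70 ± 0.39) and miR-129-5p (-4.16 ± 0.37), from which it differed by less than the sum of the errors, while miR-31-5p had the 23rd lowest.

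These falls stand against a background in which 62.3% of the 313 names kept by the filter on low counts passed the same test, 46.3% lower and 16% higher. The median of all 313 was -0.64, and miR-31-5p lay 1.67 and miR-31-3p 3.10 below it. The split depended on scaling, with 90 lower and 88 higher names when the factors were computed from the inputs alone, against 145 and 50 as deposited. Both arms passed under each of 16 alternatives, at -2.48 to -1.62 for miR-31-5p and at -4.17 to -3.05 for miR-31-3p. The authors' deposited table gave log2 fold changes of -2.35 for miR-31-5p and -4.08 for miR-31-3p. In bulk RNA, fewer cells with miR-31 and less miR-31 per cell cannot be told apart.

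miRNAs linked to myoblast proliferation and quiescence were set beside miR-31 in input, where 46.3% of all names were lower and 16% higher (median -0.64). Of the 7 kept, 5 were lower in differentiated cells and 0 higher (median -1.50). Among them were miR-222-3p (-2.70 ± 0.36, adjusted p = 4.79e-05), miR-221-3p (-2.45 ± 0.36, adjusted p = 9.30e-05) and miR-21a-5p (-1.91 ± 0.39, adjusted p = 0.00114), all by limma. Of 12 arms of other hairpins listed as passengers 9 were kept, of which 5 were lower and 0 higher (median -1.80), with miR-27a-5p at -4.51 ± 0.43 and miR-222-5p at -2.90 ± 0.34. Not all of that list were the scarcer arm in these cells. miR-140-3p and miR-199a-3p were the more abundant arm in input of both states, with log2 ratios of the 5p to the 3p arm of -5.41 and -3.63 in differentiated input, and miR-125a-3p was so in undifferentiated input (-2.54). The myomiRs, miRNAs enriched in striated muscle, went the other way, with 8 of 8 higher (median 3.85). That count holds miR-486-5p and miR-3107-5p, which are 1 mature sequence, as 2 names.

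The summed level of markers of neurons was lower in differentiated than in undifferentiated input, where 46.3% of all names tested were lower. Among these markers was miR-129-5p, at -4.16 ± 0.37, and the sum does not show the direction of each. Of 4 such markers 3 had reads, with a summed level of 58.1 to 120 CPM in differentiated input and 685 to 1160 CPM in undifferentiated input, while miR-124-3p, the defining one, was at 0 reads in all inputs. Their part in the result was not tested. Summed markers of endothelium (3.05 CPM at most) and of epithelium (85.3 CPM at most) were low in the inputs, and of 4 blood markers no more than 2 had any read there.

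Whether the MRTF-A 3'UTR retained miR-31 over the tag alone was tested in differentiated cells, which took no part in the choice of miR-31. miR-31-5p averaged 164771 ± 33623 CPM in differentiated MRTF-A eluates and 1916 ± 353 CPM in differentiated MS2 eluates (SD, n = 3 each), a ratio of means of 86.0, or 30.0 by shares of reads. The log2 difference was 6.41 ± 0.41 (SE, limma, adjusted p = 6.12e-08), higher in 3 of 3 libraries and 7th highest of 169. miR-31-3p, with 1 bait read and 0 control reads, could not be compared at this depth.

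Among the 169 names kept in the eluates 79.3% passed, 57.4% being higher in MRTF-A eluates and 21.9% lower. The median was 2.37, and miR-31-5p stood 4.04 above it. With library totals in place of the factors, 73 names were higher and 49 lower, against 97 and 37. Its neighbours in that order, miR-221-5p at 6.47 ± 1.36 and miR-34c-5p at 6.34 ± 0.37, were within the errors. Under 18 alternatives the difference of miR-31-5p was 4.97 to 6.60, with adjusted p no higher than 2.71e-05 (limma, edgeR or DESeq2). That highest p came from a fit, chosen after seeing the data, that left MS2 library C as the only differentiated control and assumed that it varies like the other groups.

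The same MRTF-A libraries were then set against the differentiated inputs, to compare the eluate with the cells. miR-31-5p was 132.5 times as high in the MRTF-A eluates, or 57.2 times by shares of reads. The log2 difference was 7.02 ± 0.34 (SE, limma, adjusted p = 5.79e-11), the third highest of 305. miR-3103-3p (9.96 ± 0.71) and miR-140-5p (8.90 ± 0.48) were above it, and miR-34c-5p (6.72 ± 0.35) and miR-199a-5p (6.65 ± 0.33) below it by less than the sum of the errors.

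miR-31-3p went the other way, with 1 read in the MRTF-A eluates and 77 in the inputs. Scaled by the factors, its level in input was 36.2 times that in the eluate (95% counting interval 6.30 to 1446), or 82.7 times with library totals (14.4 to 3307). It was kept by the filter only through the inputs, where it is high, so no test is given. The fitted log2 difference was -2.40, a value that understates the change of a name with so few reads and ran from -5.09 to -0.95 over 16 alternatives. In this comparison 62% of 305 names passed, 31.1% higher and 30.8% lower, around a median of -0.14, against 69 higher and 125 lower names with library totals. The MRTF-A over MS2 and MRTF-A over input comparisons share the MRTF-A libraries.

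**Figure D2:**
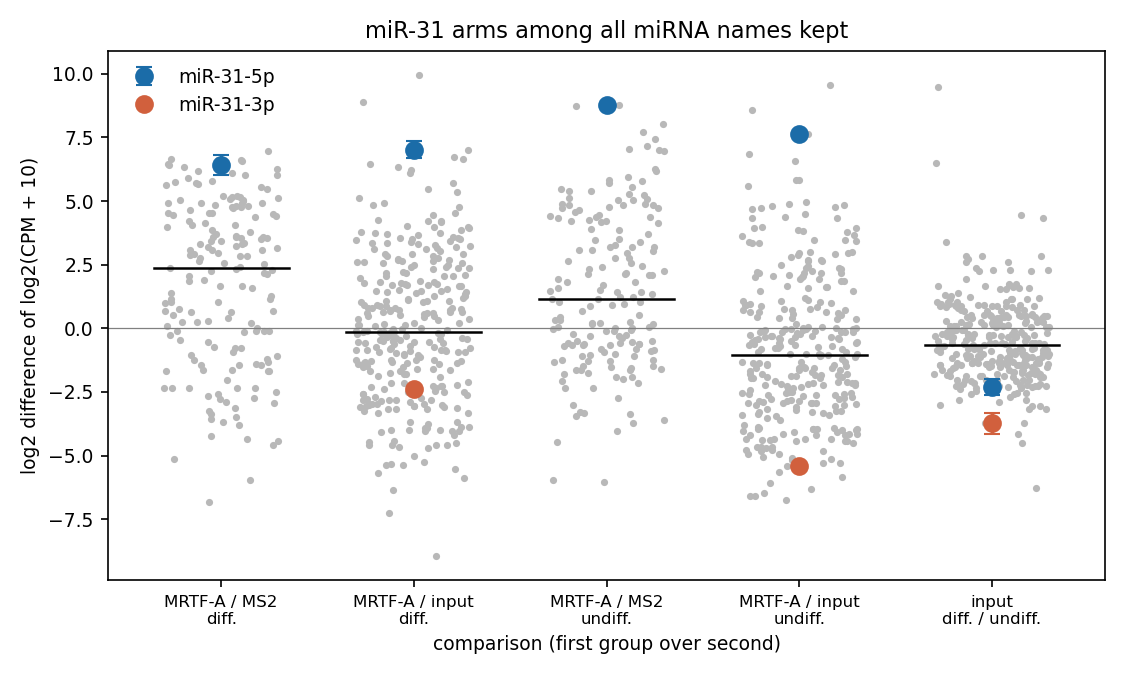
Log2 differences of log2(CPM + 10) in 5 comparisons (diff., differentiated; undiff., undifferentiated), with the first group named over the second. Grey points are all names kept, black bars their medians, and coloured points miR-31-5p and miR-31-3p with SE where a test is given; the undifferentiated MRTF-A comparisons, and miR-31-3p over input in differentiated cells, are a description. In differentiated cells miR-31-5p lies at 6.41 over MS2 and 7.02 over input and miR-31-3p at -2.40 over input, and both lie below the median in the input comparison.

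The arms listed as passengers did not share one direction in the differentiated MRTF-A eluates. Over all names 31.1% were higher and 30.8% lower against input, with a median of -0.14. Of 10 kept against input 4 were higher, among them miR-221-5p (5.71 ± 1.19) and miR-125b-1-3p (3.36 ± 0.35), and 4 were lower. These were miR-21a-3p (-3.32 ± 0.52), miR-24-2-5p (-1.59 ± 0.46), and miR-199a-3p (-4.04 ± 0.40) and miR-140-3p (-3.94 ± 0.37), the last pair being the more abundant arms in input. Against MS2 4 of 7 were higher and 1 was lower (median 1.58), near the 57.4% higher and 21.9% lower over all names (median 2.37). miRNAs of the proliferation and quiescence list were lower against input in 4 of 7 cases and higher in 0 (median -1.75). Over all names 30.8% were lower and 31.1% higher. Among the lower ones of this list were miR-21a-5p at -5.87 ± 0.31 and miR-221-3p at -4.69 ± 0.52. Against MS2 2 of 6 of this list were higher and 2 lower (median 0.07), beside 57.4% higher and 21.9% lower over all names (median 2.37). The myomiRs were higher in 5 of 6 cases against MS2, beside 57.4% over all names (median 2.62, against 2.37 over all names). Against input 2 of 7 were higher and 2 lower, beside 31.1% and 30.8% over all names (median 0.78, against -0.14 over all names). Both counts hold miR-486-5p and miR-3107-5p, which are 1 mature sequence, as 2 names. Both names were among those higher against MS2, and neither passed against input. miR-1a-3p was at 6.33 ± 0.61 over input.

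The MS2 control measured how much miR-31-5p came through without the bait, and its call against input moved with the scaling. In differentiated cells the MS2 eluates were 1.54 times as high as input, or 1.91 times by shares of reads. The log2 difference was 0.61 ± 0.34 (SE, limma, adjusted p = 0.125). Among 305 names 69.2% passed, 15.4% higher and 53.8% lower in MS2 eluates, with a median of -1.58. The value passed with RLE factors (1.45, adjusted p = 0.00103), with library totals (0.86), with DESeq2 (1.46) and with the 2 groups fitted alone (0.61), and it was above 0 in all 18 alternatives.

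In undifferentiated cells the MS2 eluates were at 0.472 times the input, or 0.910 times by shares. The log2 difference was -1.14 ± 0.34 (SE, limma, adjusted p = 0.00653), where 71.1% of names passed, 8.52% higher and 62.6% lower, with a median of -2.19. It was, however, 0.79 with RLE factors, 0.88 with DESeq2 and -0.17 with library totals. No direction is therefore given for undifferentiated cells. The difference of this contrast between the states, tested after seeing the data, was 1.75 ± 0.48 (SE, limma, adjusted p = 0.0267). It was the 53rd highest of 305, where 10.2% of names passed around a median of 0.64. The difference missed the threshold with RLE factors (0.66), library totals (1.03) and DESeq2 (0.58). Leaving out 1 library could also lose it (limma, adjusted p up to 0.0884), and only 10 of 23 alternatives kept it past the threshold. Between the MS2 eluates of the 2 states miR-31-5p averaged 1916 ± 353 CPM in differentiated and 2996 ± 1387 CPM in undifferentiated cells (SD, n = 3 each), a log2 difference of -0.57 ± 0.41 (limma, adjusted p = 0.331) where 24.9% of 169 names passed, 16% higher and 8.88% lower. The libraries overlapped. miR-31-3p, at 0 reads in MS2 eluates, was at least 12.8-fold lower there than in input in undifferentiated cells, with 3 reads per library as the limit, or 6.55-fold by shares. In differentiated cells that limit was above the level in input, and no fold is given.

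In undifferentiated cells, where miR-31 was chosen, miR-31-5p averaged 1303195 ± 570601 CPM in MRTF-A eluates, 2996 ± 1387 CPM in MS2 eluates and 6345 ± 1738 CPM in input (SD, n = 3 each). The ratio of means was 435 over MS2 and 205 over input, or 115 and 105 by shares of reads. The log2 difference was 8.77 over MS2 and 7.63 over input, and with library totals 6.87 and 6.70. Among all names kept in these comparisons, miR-31 included, 60.4% passed the test over MS2 (43.2% higher, 17.2% lower) and 68.5% over input (23.3% higher, 45.2% lower). The medians were 1.16 over MS2 and -1.04 over input. With library totals 55 names were higher and 63 lower over MS2, and 50 were higher and 159 lower over input. miR-31-3p had 3 reads in the MRTF-A eluates and 1190 in input, which was 81.3 times as high (95% counting interval 27.8 to 395), or 158 times with library totals (54.0 to 768).

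Between the 2 states of the MRTF-A eluate miR-31-5p was lower in differentiated cells, at -2.92 on the log2 scale (38.5% of 169 names passed, 23.7% higher and 14.8% lower, median 0.33). miR-31-5p took most of the reads of the undifferentiated eluates, so it also lowered the shares of all others there. With library totals that leave out miR-31-5p its difference was -3.88.

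The ratio of the arms within a library does not depend on how that library was scaled, so it was compared for every hairpin with both arms measured. In differentiated input there were 29.7, 18.2 and 31.9 reads of miR-31-5p per read of miR-31-3p in libraries A, B and C. In undifferentiated input there were 5.75, 14.2 and 6.56. The states did not overlap, but undifferentiated library B, at 14.2, was nearer to differentiated library B than to the other 2 of its own group.

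Pooled over libraries the ratio was 25.0 in differentiated input (1924 to 77 reads, 95% counting interval 19.9 to 31.8) and 7.32 in undifferentiated input (8713 to 1190 reads, 6.89 to 7.79). The log2 difference was 1.62 ± 0.44 (SE, limma, adjusted p = 0.0246), the 9th highest of 61 hairpins, of which 37.7% passed, 19.7% with a higher and 18% with a lower ratio, around a median of 0.13. It ranged from 1.37 to 2.02 when 1 library was left out. The adjusted p went above 0.05 without differentiated library A (0.0922) or C (0.0865) and without undifferentiated library A (0.0803) or C (0.0947), and with no filter on hairpins (0.142).

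In the MRTF-A eluates the arms were further apart by orders of magnitude. Differentiated MRTF-A eluates held 122195 reads of miR-31-5p and 1 of miR-31-3p (95% counting interval of the ratio 21931 to 4826484). At the ratio of differentiated input these miR-31-5p reads would come with 4890.3 reads of miR-31-3p. The log2 arm ratio was higher in MRTF-A eluates than in input by 10.27. It was the 4th highest of 66 hairpins, after miR-140 (13.07 ± 0.49), miR-221 (11.61 ± 1.12) and miR-199a (10.74 ± 0.42). The order of miR-31, miR-221 and miR-199a was not tested. The value for miR-31 depends on the read added to each arm, as miR-31-3p had 0 reads in 2 of the 3 eluates. That arm was kept by the filter only through the inputs, where it is high, so no test is given for miR-31. Of these hairpins 74.2% passed, 48.5% towards the 5p arm and 25.8% towards the 3p arm, around a median of 1.23. Over 10 alternatives the value for miR-31 was 8.40 to 11.04.

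The undifferentiated MRTF-A eluates, as a description, held 377925 reads of miR-31-5p and 3 of miR-31-3p, where the ratio of undifferentiated input would give 51616.1 reads of miR-31-3p. The log2 arm ratio there was 12.80 above that of input, 2nd to miR-140 (14.09), where 57.6% of 66 hairpins passed, 36.4% towards the 5p arm and 21.2% towards the 3p arm. In MS2 eluates there were 184 reads of miR-31-5p and 0 of miR-31-3p in differentiated cells, and 431 and 0 in undifferentiated cells. With 3 reads as the limit for a count of 0 that is at least 61.3 and at least 143.7 to 1. At the ratios of input 7.4 reads of miR-31-3p would be found in the differentiated MS2 eluates and 58.9 in the undifferentiated ones, and 0 were found in either. The lower 95% counting limits of the MS2 ratios, from pooled reads, were 49.4 in differentiated and 116 in undifferentiated cells. Both were above the upper limits in input, 31.8 and 7.79, but such limits leave out the spread between libraries. Taken singly, the differentiated MS2 libraries gave lower bounds of 15.7 to 23.7, against ratios of 18.2 to 31.9 in differentiated input libraries. At this depth they cannot show whether the arms were further apart in the control of differentiated cells. In undifferentiated cells the bound of each MS2 library was above the highest input ratio, 14.2 in library B.

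**Figure D3:**
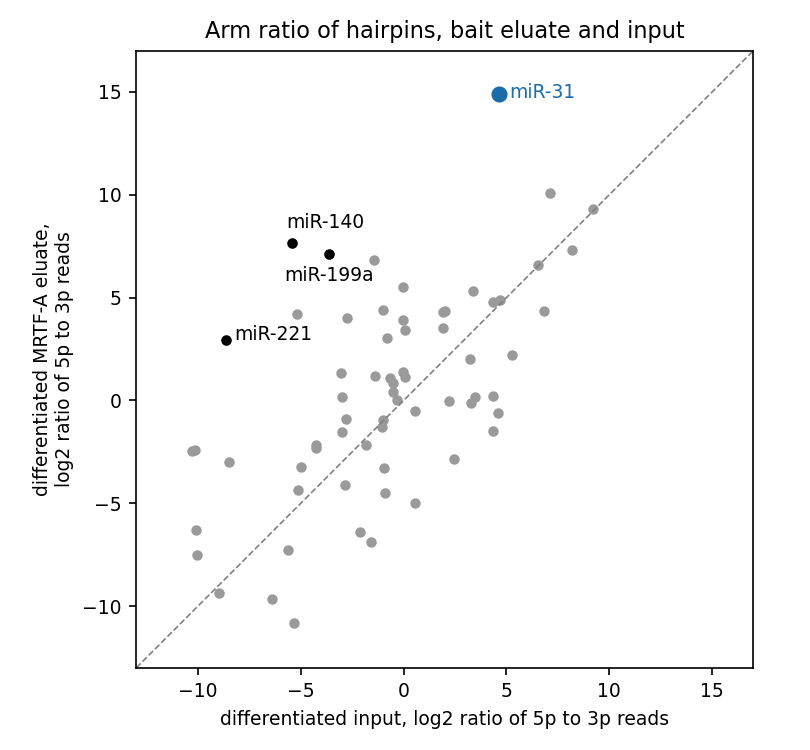
Arm ratio, as log2 of (5p reads + 1) over (3p reads + 1), of 66 hairpins in differentiated MRTF-A eluates (vertical axis) and differentiated inputs (horizontal axis), each the mean of 3 libraries. The dashed line marks equal ratios. miR-31 lies 10.27 above the line, behind miR-140 (13.07), miR-221 (11.61) and miR-199a (10.74).

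The names whose level followed that of each arm most closely were found by Pearson's r of log2(CPM + 10) over the 18 libraries, among 368 names with a mean of at least 50 CPM in 1 group. These points share the 3 kinds of library and their scaling, so r describes mainly how names divide between those kinds. They include the undifferentiated MRTF-A eluates that the choice of miR-31 rests on, so r is a description only. For miR-31-5p the closest were let-7b-5p (r = 0.99), miR-449a-5p (r = 0.98), miR-669o-5p (r = 0.98), miR-466p-3p (r = 0.97) and miR-1191b-5p (r = 0.97). let-7b-5p averaged 19891 CPM in differentiated MRTF-A eluates, 633 CPM in differentiated MS2 eluates and 715 CPM in differentiated input. The others were found almost only in MRTF-A eluates.

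For miR-31-3p the closest were miR-1983 (r = 0.96), miR-219b-3p (r = 0.95), miR-15b-3p (r = 0.95), miR-106b-5p (r = 0.94) and miR-1957a (r = 0.94), which were found mainly in input and were higher in undifferentiated than in differentiated input by their means. miR-15b-3p averaged 70.1 CPM in differentiated input and 376 CPM in undifferentiated input, against 0 CPM in differentiated MRTF-A eluates and 4.20 CPM in undifferentiated MRTF-A eluates. With Spearman's rho only 2 of the 5 names for miR-31-5p and 1 of the 5 for miR-31-3p stayed among the closest.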

How the data were processed

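Small RNA from miTRAP eluates and from input was made into TruSeq libraries and sequenced to 50 bases, per the labels' protocols. The submitters' processing notes list cutadapt 1.4.2, Bowtie2 2.0.13, featureCounts 1.4.6, edgeR 3.18.1 and GRCm38/mm10, without their settings and with no word on multimapping reads or strand. The deposited signal values are CPM scaled by the authors with TMM factors over all 18 libraries, which could be recovered to whole reads for 100% of values (tolerance 0.01 read). The deposited log2 fold changes and p-values (false discovery rates) are the authors' own and are printed only where named so. The column suffixes (none, 1 and 2) do not match the labels' replicate numbers (1 to 3), so columns were tied to groups and lettered A to C.

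log2(CPM + 10) was tested with limma 3.58.1 (R 4.3.3, trended eBayes) over all names kept by edgeR's filterByExpr, with Benjamini-Hochberg adjustment and a threshold of 0.05. Inputs were fitted on 6 libraries, eluates on 12, and eluates against inputs on all 18, so that those comparisons share their estimate of spread. Arm ratios were log2((5p reads + 1)/(3p reads + 1)) per hairpin, with the same test. Where a group was at 0 reads no fold is given. Where the whole reads allowed a count model, edgeR 4.0.16 and DESeq2 1.42.0 were alternatives, beside other scalings, pseudocounts, no filter and each library left out. Counting intervals are exact (95%). Scripts were tested on simulated data. No replicate libraries matched within sampling noise (lowest chi-square over its degrees of freedom 3.90).

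The members, lists and tests were chosen with earlier results of these data known. Names given with values were the members, their neighbours in the orders, the highest names of each group, the closest 5 by correlation, and examples from the lists; hairpins beside miR-31 in the arm comparison and neighbours in the order of differences were chosen after their values were seen. Gene and 3'UTR annotation was GENCODE vM21.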

Additional observations from a re-analysis of the deposited data

Results flagged for a closer look

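The difference between MS2 eluates and input was compared between the states for miR-31-5p, a comparison chosen after seeing the data. The MS2 minus input log2 difference was 0.61 in differentiated cells and -1.14 in undifferentiated cells, 1.75 ± 0.48 apart (SE, limma, adjusted p = 0.0267). That was the 53rd highest of 305, where 10.2% of names passed around a median of 0.64. The comparison was singled out because the effect of the same contrast differed between the 2 states by a test of the difference itself. Only 10 of 23 alternatives kept it past the threshold.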

How the results depend on the processing

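The falls of both arms in input kept their direction and stayed past the threshold in all alternatives run. So did the differences of miR-31-5p between differentiated MRTF-A eluates and MS2 eluates or input. The arm ratio of those MRTF-A eluates over input, given without a test, kept its direction in all alternatives run. miR-31-5p in MS2 over input did not. In differentiated cells it passed with RLE factors (1.45), library totals (0.86, also without miR-31-5p in them), DESeq2 (1.46) and the 2 groups alone (0.61). In undifferentiated cells it turned round with RLE factors (0.79) and DESeq2 (0.88), and missed the threshold with library totals (-0.17, also without miR-31-5p) and with library A as the only undifferentiated MS2 library (-0.43, the library there with many human-named reads, chosen after seeing the data and assumed to vary like the other groups). The difference of this contrast between states missed it with no filter (1.75, adjusted p = 0.0850), RLE factors (0.66), library totals (1.03, also without miR-31-5p), DESeq2 (0.58) and the 3 MS2 libraries with many such reads (1.03), and ranged from 1.54 to 2.10 with 1 library left out, at an adjusted p of up to 0.0884. The cause was not tested.

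The arm ratio in input was 1.62 with no filter (adjusted p = 0.142) and 1.37 to 2.02 with 1 library left out, with 14 to 26 hairpins called, against 23. Without the filter, 149 hairpins were called in the arm ratio of the bait eluate, against 49, and 307 names in MRTF-A over input, against 189, as more were tested. With the 2 groups alone 22 names were called between MS2 eluates of the states, against 42. Among the undifferentiated descriptions, miR-31-5p over MS2 was 6.87 with library totals, and over input 8.91 with RLE factors and 6.70 with library totals. miR-31-3p over input was -4.24 with RLE factors, against -5.41 with the deposited scaling. Between MRTF-A eluates of the states miR-31-5p was at -3.88 with totals that leave it out.

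No paired analysis was possible because the columns' suffixes do not match the labels' replicate numbers. The MS2 eluates, at 15562 to 39695 reads, limit what can be said of miR-31-3p there, and each comparison has 3 libraries a group.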
